A study of Mus musculus with 11 samples.

Results

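The 9 genes described here encode the proteins that carry the light response of rod photoreceptors from the activated visual pigment to the ion channel of the outer segment, and the arrestin that ends it. They are the transducin subunit genes Gnat1, Gnb1 and Gngt1, the phosphodiesterase 6 subunit genes Pde6a, Pde6b and Pde6g, the cyclic nucleotide-gated channel subunit genes Cnga1 and Cngb1, and Sag, which encodes rod arrestin. They were chosen by name, with earlier results of these data known. They were matched by Ensembl identifier to 9 of the 37991 genes in the count table. All 9 passed the filter on low counts, which kept 17099 genes. RNA was sequenced from 11 right-eye retinas, each from a different mouse, at postnatal day 24. Wild-type mice were C57Bl/6J, and the mutant mice were rd10, labelled B6.CXB1-Pde6brd10/Jrd10 with a C57Bl/6J background, a strain that carries a missense allele of Pde6b. Mice of either genotype received daily intraperitoneal injections from day 9 to day 24 of saline or of GSK2879552 (GSK below), an inhibitor of the histone demethylase LSD1, at 4.2 mg/kg in saline. The groups were wild-type saline (2 mice), wild-type GSK (3 mice), rd10 saline (3 mice) and rd10 GSK (3 mice). The mutation is in the germ line of the rd10 mice, so every cell of their retinas carries it, and whole retina was sequenced, not sorted rods.

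In the dark, guanylate cyclase keeps cyclic GMP high in the rod outer segment and holds the CNGA1/CNGB1 channel open. Light-activated visual pigment switches the transducin alpha subunit GNAT1 to its GTP-bound form, which leaves the beta-gamma pair GNB1/GNGT1 and relieves the inhibition that the PDE6 gamma subunits place on the catalytic PDE6A/PDE6B pair. Cyclic GMP is then hydrolysed, the channel closes and the cell hyperpolarises, after which arrestin binds the phosphorylated pigment and stops it from activating further transducin. In rd10 the PDE6 beta subunit is altered, and rods degenerate in the weeks after birth. GNB1 is also made by many other cell types, whereas the other 8 genes are used in the retina chiefly by rods.

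RefSeq promoter windows on GRCm38.p6 were at hand for 6 of the 9 genes (Sag, Gnb1, Cnga1, Pde6b, Gngt1 and Cngb1). They are shown because these genes moved together in the counts and because rod genes are classically driven by the homeobox factor CRX and the leucine zipper factor NRL. In the 250 bases before each start, both strands were searched for TAATCC, the core bound by CRX, and for TGCTGA, a half-site bound by NRL. The core TAATCC was found in the windows of Gngt1, Cnga1, Cngb1 and Sag, and the half-site TGCTGA in those of Pde6b and Sag. Annotated exons cover 250 of the 250 bases of the Cnga1 window and 216 of the 250 of the Gngt1 window. The Cnga1 match thus lies in annotated exon sequence. So does the Gngt1 match, 44 bases before the RefSeq start, since the annotated gene begins at 3993792 in the window chr6:3993758-3994007. The window of Gnb1, the widely used member, held neither. Among 32851 windows of the same length, 6.25% held TAATCC, 16.1% held TGCTGA and 0.962% held both. A match describes the letters only and is neither a site nor a cause. The 4 windows that lie outside annotated exons are given below 5′ to 3′ on the strand of the gene, with the matches in capitals. They are, in order, chr5:108388123-108388372 (plus strand), chr8:95306586-95306835 (minus strand), chr1:87803430-87803679 (plus strand) and chr4:155491111-155491360 (plus strand).
Pde6b: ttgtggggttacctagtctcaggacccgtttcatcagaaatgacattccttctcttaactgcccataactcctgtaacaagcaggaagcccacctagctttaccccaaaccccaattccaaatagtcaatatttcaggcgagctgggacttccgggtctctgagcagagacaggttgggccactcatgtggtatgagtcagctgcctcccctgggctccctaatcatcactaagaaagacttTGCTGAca
Cngb1: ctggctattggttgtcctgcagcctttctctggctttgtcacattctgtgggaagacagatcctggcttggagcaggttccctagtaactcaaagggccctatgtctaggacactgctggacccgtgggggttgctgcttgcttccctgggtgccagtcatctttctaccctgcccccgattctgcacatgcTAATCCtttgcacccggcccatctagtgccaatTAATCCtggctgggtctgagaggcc
Sag: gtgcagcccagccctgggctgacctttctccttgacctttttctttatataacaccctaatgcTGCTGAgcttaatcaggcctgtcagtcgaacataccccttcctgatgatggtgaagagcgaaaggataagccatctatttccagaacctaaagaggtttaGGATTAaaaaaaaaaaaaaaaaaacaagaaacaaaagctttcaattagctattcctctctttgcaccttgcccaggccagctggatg
Gnb1: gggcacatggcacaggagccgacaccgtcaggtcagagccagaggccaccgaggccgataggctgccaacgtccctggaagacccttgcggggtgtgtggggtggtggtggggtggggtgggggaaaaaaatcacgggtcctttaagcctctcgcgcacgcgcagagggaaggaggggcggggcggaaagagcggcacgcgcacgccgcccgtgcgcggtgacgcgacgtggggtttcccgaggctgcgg
The Pde6b match starts 8 bases before the RefSeq start. The Cngb1 window holds TAATCC at 58 and again at 25 bases before the start. In the Sag window TGCTGA starts 187 bases before the start, and the capitals GGATTA, 87 bases before it, are TAATCC read on the opposite strand.

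Total counts per library ranged from 19657030 to 28053367, and the 9 genes took 2.92% to 3.24% of all counts in wild type, 0.653% to 0.790% in rd10 saline and 1.41% to 2.43% in rd10 GSK. Levels below are CPM, counts relative to the library total after scaling by TMM, the trimmed mean of M values, and fold changes are log2 values with standard errors from edgeR's quasi-likelihood test, adjusted by Benjamini-Hochberg over all 17099 genes with a threshold of 0.05. Lens RNA was present in wild-type saline replicate 2, where 9 lens markers added up to 637 CPM, and in rd10 GSK replicate 2, where they reached 6665 CPM, against 4.26 to 15.7 CPM in the other 9 libraries. The defining lens gene Mip was at 0 in 7 libraries. Xist, transcribed from the inactive X chromosome, was at least 780 CPM in 7 libraries and at most 0.338 CPM in the other 4. The low ones were replicate 2 of wild-type GSK, replicate 2 of rd10 saline, and replicates 1 and 3 of rd10 GSK.

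Per kilobase of exon, the only scale on which levels of different genes are compared here, Gnat1 was the highest of the 9 genes in wild-type saline retina, at 5662 ± 257 CPM per kb (SD, n = 2). Sag (2596 ± 174), Pde6g (2476 ± 118) and Gnb1 (2006 ± 52.0) followed, and the spreads of Sag and Pde6g overlapped. The beta-gamma partner of Gnat1 that is restricted to rods, Gngt1, was at 936 ± 7.30 CPM per kb. The catalytic phosphodiesterase subunits stood at 809.5 ± 17.8 for Pde6b and 648 ± 0.384 for Pde6a. The channel genes were lowest, with Cnga1 at 205 ± 1.22 and Cngb1 at 78.7 ± 4.53 CPM per kb. Counted over the longest coding transcript in place of all exons, Cnga1 was at 339 and Cngb1 at 91.8 CPM per kb, and the order of the 9 genes did not change. Counts of Cngb1 also include its shorter products, the soluble glutamic acid-rich proteins, which the same gene encodes.

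All 9 genes fell in rd10 saline relative to wild-type saline retina, by 1.50 to 2.81 on the log2 scale with a median of -2.37, where 19.0% of all tested genes fell and the median of all tested genes was 0.02. All 9 rose in rd10 GSK relative to rd10 saline, by 0.71 to 1.97 with a median of 1.56, where 17.6% of all tested genes rose and the median of all tested genes was 0.01. For each of the 9 genes every wild-type saline library lay above every rd10 saline library (29.7% of all tested genes) and every rd10 GSK library above every rd10 saline library (22.5% of all tested genes). In rd10 GSK, replicate 1 was the lowest and replicate 3 the highest for 9 of 9 genes. These comparisons share the rd10 saline libraries. In whole retina, fewer rods and less RNA per rod cannot be told apart.

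**Figure D1:**
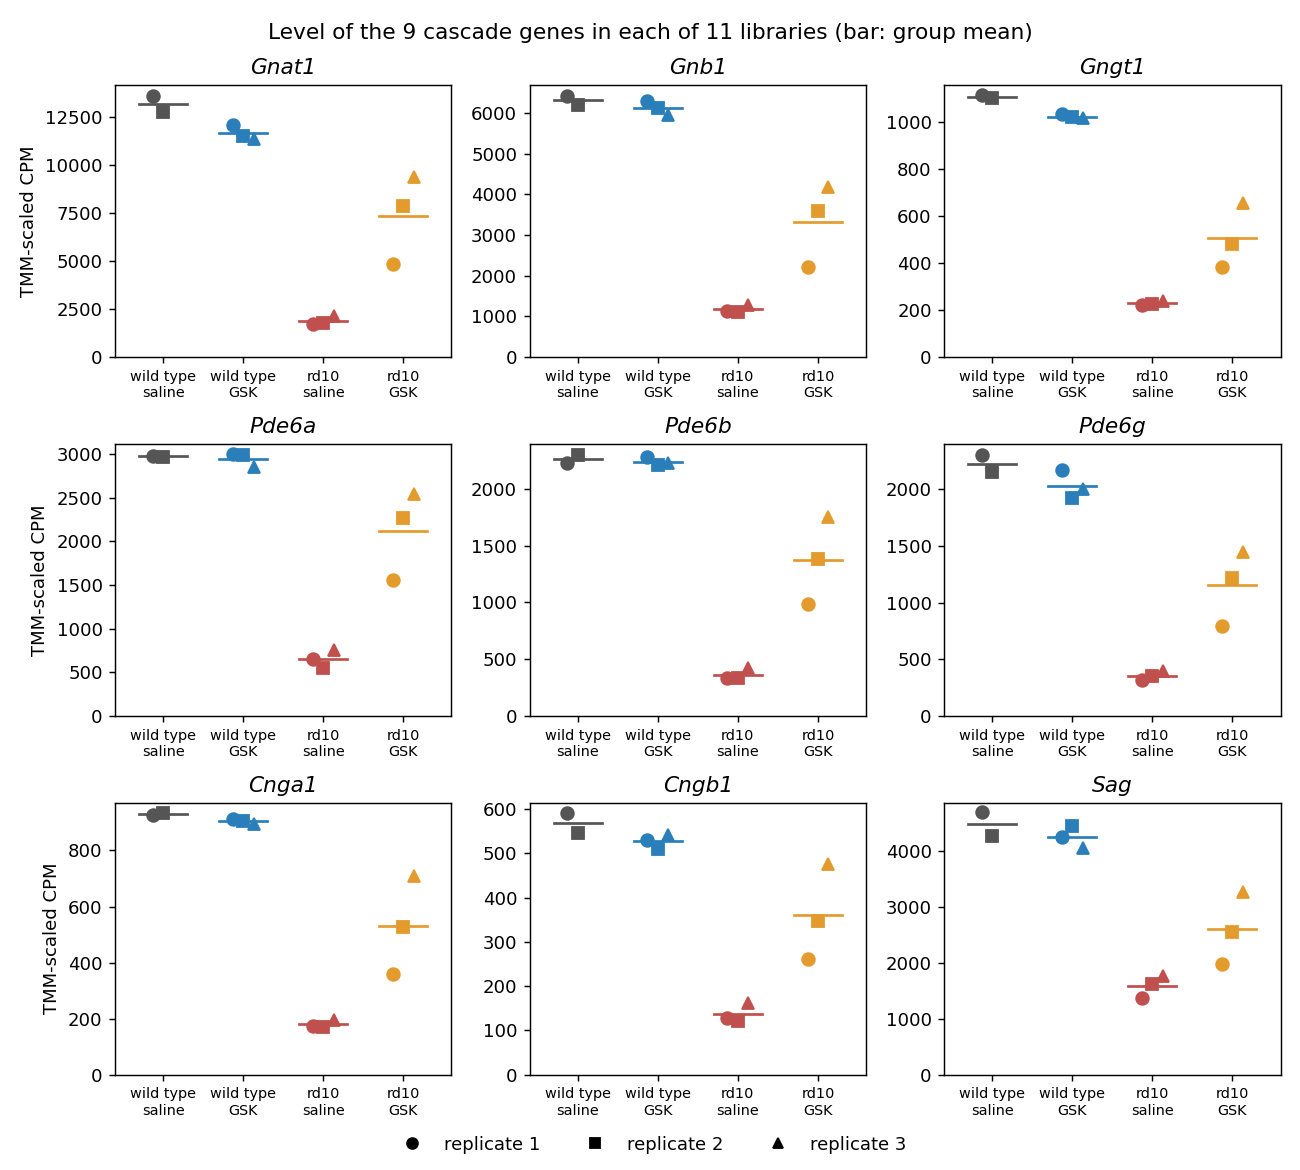
Level of each of the 9 cascade genes in each of the 11 libraries. The y axis is TMM-scaled CPM from 0, each point is 1 mouse (circle, square and triangle for replicates 1, 2 and 3), and the bar is the group mean. In every panel the rd10 saline points lie lowest, the rd10 GSK points lie between them and wild type, and rd10 GSK replicate 1 is below replicates 2 and 3.

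The phosphodiesterase genes come first because Pde6b (ENSMUSG00000029491, chr5:108388391-108432397 on GRCm38), the catalytic beta subunit, is the gene altered in rd10. Pde6b stood at 2231 and 2301 CPM in wild-type saline, 2282, 2214 and 2232 in wild-type GSK, 332, 333 and 422 in rd10 saline and 991, 1381 and 1757 in rd10 GSK. The wild-type groups overlapped, and both rd10 groups were separate from wild type and from each other. Pde6b fell by 2.64 ± 0.20 in rd10 saline (edgeR adjusted p = 1.07e-05) and rose by 1.93 ± 0.18 with GSK in rd10 (adjusted p = 6.97e-05). The rd10 allele changes an amino acid of the protein, so the count of Pde6b does not itself check the genotype labels.

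Pde6a (ENSMUSG00000024575), the catalytic alpha subunit, was at 2975 and 2973 CPM in wild-type saline, 2998, 2986 and 2856 in wild-type GSK, 653.5, 551 and 752 in rd10 saline and 1553, 2265 and 2549 in rd10 GSK. The 2 highest rd10 GSK retinas reached 76.2% and 85.7% of the wild-type saline mean, the highest shares among the 9 genes in those libraries. Pde6a fell by 2.19 ± 0.18 in rd10 saline (adjusted p = 1.67e-05) and rose by 1.70 ± 0.17 with GSK (adjusted p = 7.89e-05). The ratio of Pde6a to Pde6b counts was 1.33 and 1.29 in wild-type saline, 1.97, 1.65 and 1.78 in rd10 saline and 1.57, 1.64 and 1.45 in rd10 GSK. It was therefore higher in all 6 rd10 retinas than in all 5 wild-type retinas, where the GSK-treated ones gave 1.28 to 1.35.

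Pde6g (ENSMUSG00000025386, chr11:120447605-120453500), the inhibitory gamma subunit, was at 2304 and 2153 CPM in wild-type saline and 2171, 1927 and 2004 in wild-type GSK. In rd10 it was at 319, 350 and 394 CPM with saline and 795, 1216 and 1451 with GSK. Pde6g fell by 2.65 ± 0.20 in rd10 saline (adjusted p = 1.38e-05) and rose by 1.70 ± 0.19 with GSK (adjusted p = 0.000177). The Pde6g to Pde6b ratio was 0.936 to 1.03 in wild-type saline and 0.934 to 1.05 in rd10 saline, which overlapped. It was 0.802 to 0.881 in rd10 GSK, below every rd10 saline library. In wild-type GSK it was 0.951, 0.870 and 0.898, which overlapped rd10 GSK.

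Gnat1 (ENSMUSG00000034837, chr9:107674474-107679712), the transducin alpha subunit that carries GTP, stood at 13600 and 12760 CPM in wild-type saline, 12090, 11550 and 11380 in wild-type GSK, 1711, 1772 and 2158 in rd10 saline and 4852, 7870 and 9381 in rd10 GSK. The rd10 saline retinas held 13.0%, 13.4% and 16.4% of the wild-type saline mean, lower in each library than any other of the 9 genes. Gnat1 fell by 2.81 ± 0.22 in rd10 saline (adjusted p = 1.85e-05) and rose by 1.97 ± 0.21 with GSK (adjusted p = 0.000145), which were the largest changes among the 9 genes in either direction.

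Gnb1 (ENSMUSG00000029064, chr4:155491361-155559269), the transducin beta subunit shared with other cells, was at 6422 and 6191 CPM in wild-type saline, 6281, 6113 and 5954 in wild-type GSK, 1127, 1116 and 1287 in rd10 saline and 2223, 3579 and 4173 in rd10 GSK. Although many retinal cells use it, Gnb1 followed the rod genes: it fell by 2.42 ± 0.20 in rd10 saline (adjusted p = 2.1e-05) and rose by 1.50 ± 0.19 with GSK (adjusted p = 0.00034). The Gnat1 to Gnb1 ratio was 2.06 and 2.12 in wild-type saline, 1.52, 1.59 and 1.68 in rd10 saline and 2.18, 2.20 and 2.25 in rd10 GSK. Treated rd10 retinas thus lay above wild-type saline in this ratio, and wild-type GSK retinas, at 1.89 to 1.93, below it.

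Gngt1 (ENSMUSG00000029663, chr6:3993792-3997436), the rod gamma subunit, was at 1113 and 1101 CPM in wild-type saline, 1032, 1020 and 1018 in wild-type GSK, 221, 226 and 238 in rd10 saline and 383, 482 and 656 in rd10 GSK. It fell by 2.28 ± 0.17 in rd10 saline (adjusted p = 7.37e-06) and rose by 1.15 ± 0.15 with GSK (adjusted p = 0.000395). The treated rd10 retinas reached 34.6%, 43.6% and 59.3% of wild-type saline, the lowest shares among the 9 genes. Per count of Gnat1, Gngt1 was at 0.0818 and 0.0863 in the wild type given saline. It was at 0.110 to 0.129 in rd10 saline and 0.0613 to 0.0789 in rd10 GSK, and these 3 groups did not overlap.

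The channel genes were lower in level but moved by similar amounts. Cnga1 (ENSMUSG00000067220, chr5:72603696-72644275), the subunit that forms the cyclic GMP-gated pore, was at 925 and 933 CPM in wild-type saline, 912, 906 and 895.5 in wild-type GSK, 173, 171 and 196 in rd10 saline and 359, 528 and 707 in rd10 GSK. It fell by 2.37 ± 0.22 in rd10 saline (adjusted p = 4.46e-05) and rose by 1.56 ± 0.20 with GSK (adjusted p = 0.000465). Cngb1 (ENSMUSG00000031789, chr8:95239045-95306585), the modulatory subunit, was at 591.5 and 545 CPM in wild-type saline, 529, 511 and 542 in wild-type GSK, 127, 121 and 163 in rd10 saline and 262, 346 and 475.5 in rd10 GSK. It fell by 2.05 ± 0.21 (adjusted p = 0.000104) and rose by 1.40 ± 0.20 (adjusted p = 0.000828). The Cnga1 to Cngb1 ratio was 1.56 and 1.71 in wild-type saline and 1.20 to 1.41 in rd10 saline, and the rd10 GSK values of 1.37 to 1.53 overlapped those of rd10 saline.

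Sag (ENSMUSG00000056055, chr1:87803680-87845158), the arrestin that quenches the pigment, stood apart from the genes of the activating steps. It was at 4701 and 4275 CPM in wild-type saline, 4259, 4455 and 4061 in wild-type GSK, 1374, 1623 and 1763 in rd10 saline and 1981, 2555 and 3273 in rd10 GSK. The rd10 saline retinas held 30.6%, 36.2% and 39.3% of the wild-type saline mean, above every rd10 saline value of the other 8 genes, which reached at most 28.6%. Sag fell by 1.50 ± 0.17 in rd10 saline (adjusted p = 0.000111) and rose by 0.71 ± 0.16 with GSK (adjusted p = 0.00632), the smallest changes among the 9 genes. Per count of Gnat1, Sag was at 0.346 and 0.335 in wild-type saline, 0.803, 0.916 and 0.817 in rd10 saline and 0.408, 0.325 and 0.349 in rd10 GSK. The ratio was thus higher in rd10 saline than in any other library, and the rd10 GSK values spanned those of wild-type saline.

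Over the 6 subunit ratios, chosen after the values were seen, 10 of 12 comparisons between groups gave no overlap and an exact two-sided permutation p of 0.1, which is the smallest these group sizes allow, with an adjusted p of 0.12. The threshold therefore could not be passed for any ratio.

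**Figure D2:**
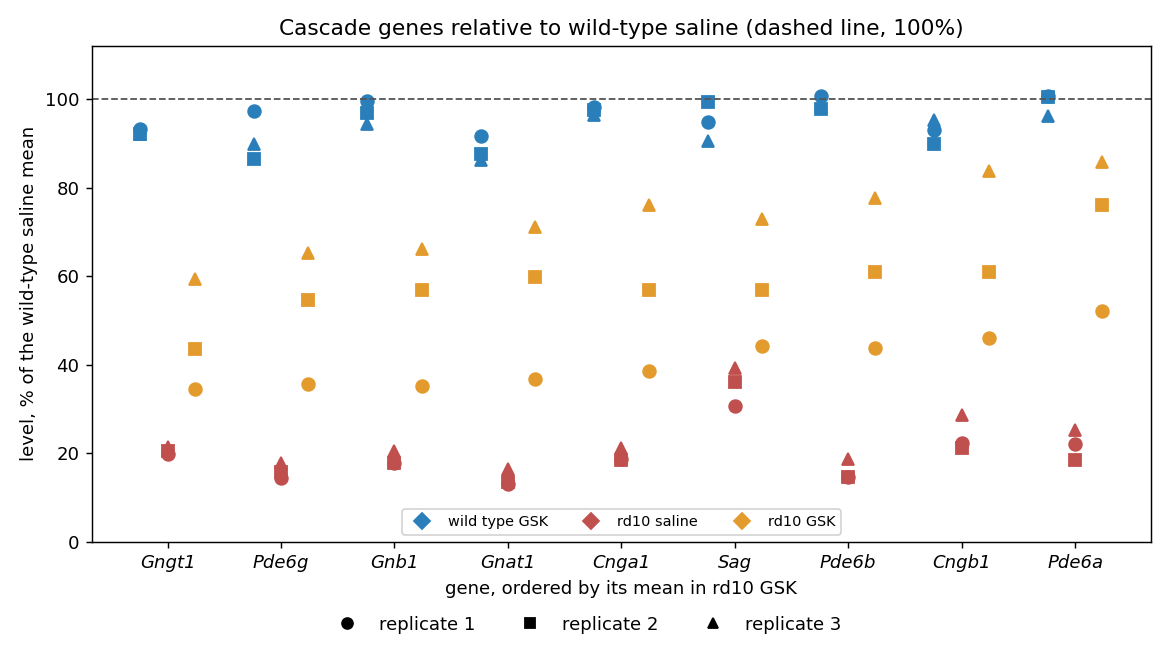
Level of each cascade gene as a percentage of its wild-type saline mean (y axis, dashed line at 100%), with genes ordered by their mean in rd10 GSK (x axis) and 1 point per mouse. In rd10 saline Gnat1 is lowest (13.0% to 16.4%) and Sag highest (30.6% to 39.3%), whereas in rd10 GSK Gngt1 is lowest (34.6% to 59.3%) and Pde6a highest (52.2% to 85.7%).

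The levels of other cell types moved beside these changes. Of all tested genes, 21.5% rose and 19.0% fell in rd10 saline, and 17.6% rose and 15.2% fell with GSK in rd10. Summed over 9 microglia markers the level was 56.2 to 63.5 CPM in wild type, 359 to 438 in rd10 saline and 101.1 to 219 in rd10 GSK, with 9 of 9 markers risen in rd10 saline and 9 of 9 fallen with GSK in rd10. Within rd10 GSK it ran against the cascade genes, at 219, 159 and 101.1 CPM in replicates 1, 2 and 3. The 6 Müller glia markers summed to 4641 to 5287 CPM in wild type, 5973 to 6923 in rd10 saline and 2737, 3244 and 4621 in rd10 GSK. The higher sum in rd10 saline came from Apoe, a lipid carrier, and the other 5 summed to 3963 to 4544 CPM in wild type, 3781 to 3872 in rd10 saline and 1793 to 3624 in rd10 GSK. Apoe, Slc1a3, Aqp4 and Sox9 rose in rd10 saline, while Glul, glutamine synthetase and the most abundant of the 6, was at -0.33 ± 0.35 (adjusted p = 0.493) and Rlbp1 at 0.00 ± 0.15 (adjusted p = 0.988). With GSK in rd10, 5 of the 6 fell, and Glul was at -0.47 ± 0.31 (adjusted p = 0.298). No marker of either list was at 0 in any library. The bipolar markers summed to 1846 to 1940 CPM in wild type, 2193 to 2249 in rd10 saline and 1548 to 1607 in rd10 GSK. The 4 blood markers moved in the direction of the cascade genes. They summed to 15.8 to 45.2 CPM in wild type, 6.25 to 9.14 in rd10 saline and 11.5 to 17.5 in rd10 GSK, with 4 of 4 fallen in rd10 saline (median -1.95) and 2 of 4, Alas2 and Slc4a1, risen with GSK. Both were at low levels. Alas2 was at 1.135 to 1.385 CPM in rd10 saline and 2.35 to 4.12 in rd10 GSK, and Slc4a1 at 0.0462 to 0.203 and 0.726 to 1.66. Most of the sum was Hba-a1, which ranged from 10.7 to 38.2 CPM in wild type and was not called with GSK. Within rd10 GSK the sum of the 4 blood markers ran against the cascade genes, at 17.5, 13.5 and 11.5 CPM in replicates 1, 2 and 3. The part of these cell types in the result was not tested. Without the 2 libraries with lens RNA, and with the Xist class as a covariate, 9 of 9 genes still fell in rd10 saline and 9 of 9 still rose with GSK, and Xist was low in both the lowest and the highest rd10 GSK library.

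Scaling mattered to the size of the drug effect but not to its direction. Inner retina scaling divides by the summed counts of the bipolar, amacrine and ganglion cell markers. By the main test 8 of 8, 3 of 6 and 6 of 7 of these fell with GSK in rd10 (15.2% of all tested genes fell). This scaling therefore moves every gene up in the rd10 drug comparison, where the median of all genes became 0.38 and that of the 9 genes 1.92. A fall lost or a rise gained there follows in part from this shift, and does not decide which scaling is right. With library totals the median of all genes was 0.23 in rd10 saline against wild-type saline, and that of the 9 genes was -2.16. The 9 genes were called in the same direction under every scaling in both comparisons.

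Cones run the same cascade with their own versions of most of these proteins, encoded by Gnat2, Gnb3, Gngt2, Pde6c, Pde6h, Cnga3, Cngb3 and Arr3. In rd10 saline 0 of these 8 genes fell and 1, Gnb3, rose (21.5% of all tested genes rose), by 1.02 ± 0.19 (adjusted p = 0.00218). Gnb3 also serves ON bipolar cells, and stood at 349 and 367 CPM in wild-type saline and 707, 760.5 and 709 in rd10 saline. Gnat2 was not called (-0.45, adjusted p = 0.136), at 180 and 185 CPM in wild-type saline and 122, 139 and 138 in rd10 saline. The cone opsin genes are outside the 8. Opn1sw was at 563 and 450 CPM in wild-type saline and 179, 346 and 370 in rd10 saline. In rd10 GSK it was at 162, 398 and 313. Opn1mw was at 191 and 192 CPM in wild-type saline, 121.5, 130 and 124.5 in rd10 saline and 108, 177 and 216 in rd10 GSK. Neither opsin gene was called in either comparison. With GSK in rd10, 0 of the 8 rose and 4 fell (15.2% of all tested genes fell): Cngb3 by 0.53 ± 0.11 (adjusted p = 0.00355), Pde6h by 0.42 ± 0.09 (adjusted p = 0.00296), Cnga3 by 0.38 ± 0.07 (adjusted p = 0.0016) and Gngt2 by 0.35 ± 0.10 (adjusted p = 0.0224). Under inner retina scaling none of the 4 passed: Gngt2 turned to 0.02, and Cnga3, Pde6h and Cngb3 were at -0.01, -0.06 and -0.17. Under that scaling Cngb3 also fell in rd10 saline, at -0.32 (adjusted p = 0.0403), and by library totals Cnga3 rose there, at 0.23 (adjusted p = 0.0339).

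The ratio of a rod gene to its cone counterpart was taken within each library, as a difference of log2 (CPM + 1). For Gnat1 over Gnat2 it was 6.23 and 6.10 in wild-type saline, 3.80, 3.66 and 3.96 in rd10 saline and 5.97, 5.86 and 6.02 in rd10 GSK. For Gnb1 over Gnb3 it was 4.20 and 4.07 in wild-type saline, 0.67, 0.55 and 0.86 in rd10 saline and 1.46, 2.46 and 3.18 in rd10 GSK. In all 9 pairs the ratio was lower in rd10 saline than wild-type saline, with differences from -1.55 (Sag over Arr3) to -3.44 (Gnb1 over Gnb3), and higher in rd10 GSK than rd10 saline, by 1.18 (Sag over Arr3) to 2.15 (Gnat1 over Gnat2). No pair overlapped between the groups in either comparison, with exact permutation p = 0.1 in every test, the smallest possible, and an adjusted p of 0.1.

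**Figure D3:**
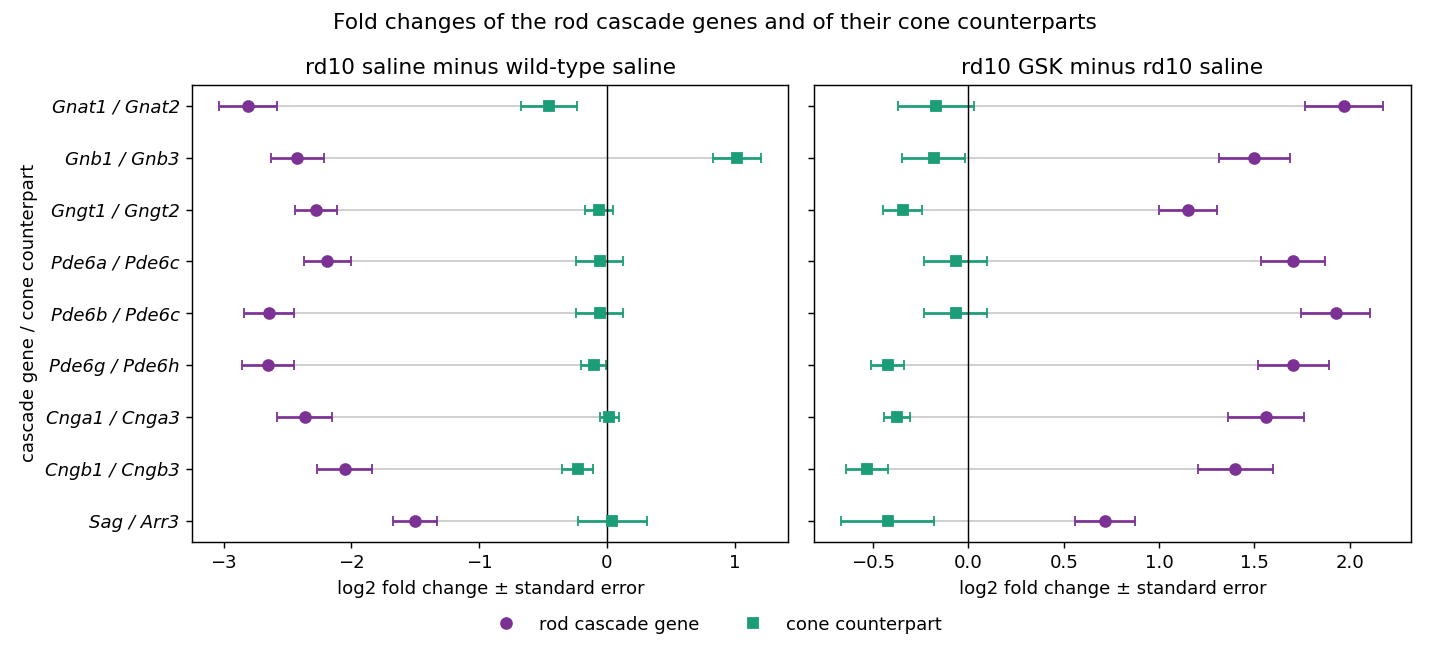
Log2 fold change with standard error (x axes) of each rod cascade gene (circles) and of its cone counterpart (squares), in rd10 saline minus wild-type saline (left) and rd10 GSK minus rd10 saline (right). All 9 rod genes lie below 0 on the left and above 0 on the right, while the cone genes lie between -0.45 and 0.04 on the left apart from Gnb3 at 1.02, and between -0.53 and -0.07 on the right, where inner retina scaling moves the cone median from -0.36 to about 0 (0.00).

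The genes that reset the rod and make its cyclic GMP moved with the cascade. Of 11 such genes all 11 fell in rd10 saline (19.0% of all tested genes fell), with a median of -1.87. All 11 rose with GSK in rd10 (17.6% of all tested genes rose), with a median of 1.37. Guca1b, a calcium sensor of guanylate cyclase, fell by 3.09 ± 0.16 and rose by 2.26 ± 0.14. Pdc, phosducin, which binds the transducin beta-gamma pair, fell by 2.87 ± 0.29 and rose by 2.21 ± 0.27. Grk1, the kinase that phosphorylates the pigment before arrestin binds, fell by 1.57 ± 0.16 and rose by 1.15 ± 0.15. Rcvrn, recoverin, which restrains that kinase, fell by 1.78 ± 0.12 and rose by 0.99 ± 0.11. Gnb5, part of the complex that hastens GTP hydrolysis on transducin, had the smallest fall of the 11, by 1.18 ± 0.23.

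Proteins that fold the cascade subunits or carry them to the outer segment gave a mixed picture. Of 11 such genes 8 fell in rd10 saline and 1 rose (19.0% and 21.5% of all tested genes), with a median of -0.57. With GSK in rd10, 8 rose (17.6% of all tested genes), with a median of 0.40. These counts moved with scaling. Under inner retina scaling 8 fell and 0 rose in rd10 saline and all 11 rose with GSK, with a median of 0.77. In that setting 9775 of all 17099 tested genes rose with GSK, with a median of 0.38. It called 7132 genes in rd10 saline, 2747 of them higher. By library totals 7 fell and 3 rose in rd10 saline and 7 rose with GSK. Of all genes, library totals called 8263 in rd10 saline, 6706 of them higher, and 2008 higher with GSK. Unc119, a carrier of acylated transducin alpha, fell by 1.66 ± 0.16 and rose by 1.31 ± 0.15. Aipl1, the chaperone of phosphodiesterase 6, fell by 1.19 ± 0.09 and rose by 1.00 ± 0.09. Icmt, which methylates prenylated proteins such as the phosphodiesterase and gamma subunits, was at 803 and 745 CPM in wild-type saline, 347, 337 and 349 in rd10 saline and 749, 755 and 663 in rd10 GSK. Its treated rd10 values lay close to those of wild-type saline, and the lowest was in the library where the 9 cascade genes were highest. Unc119b, a paralog of Unc119, rose in rd10 saline by 0.24 ± 0.07 (adjusted p = 0.0144), which inner retina scaling ended (0.15, adjusted p = 0.16). Among 9 tested genes for other, widely used beta and gamma subunits, 4 rose and 1 fell in rd10 saline, where 21.5% of all tested genes were higher and 19.0% lower. By library totals 6 rose and 0 fell, where 81.2% of the 8263 genes called were higher. Under inner retina scaling 3 rose and 2 fell, where 38.5% of the 7132 genes called were higher. In the main fit Gnb2 rose in rd10 saline by 0.68 ± 0.13 (adjusted p = 0.00189), opposite in direction to Gnb1 under every scaling used. The rd10 saline retinas gave 180, 194 and 160.5 CPM of Gnb2 against 113 and 109.5 in wild-type saline.

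Measured against 12 other rod genes of the same library, the 9 genes did not all keep a constant share. These 12 genes, among them Nrl and Nr2e3 (rod transcription factors), Rom1 (a disc rim protein) and Rp1 (an axonemal protein), share Guca1b and Slc24a1 with the list above. Of the 12, 11 fell in rd10 saline (19.0% of all tested genes fell), with a median of -2.76, and Samd7 was at -0.68 ± 0.24 (adjusted p = 0.0518). All 12 rose with GSK in rd10 (17.6% of all tested genes rose), with a median of 1.80. On the scale of log2 (CPM + 1) minus the mean of these 12, Sag differed by 0.92 between rd10 and wild-type saline retinas and then differed by -1.07 between rd10 GSK and rd10 saline. Cngb1 differed by 0.36 and then -0.40, and Gngt1 by 0.15 and then -0.65. Gnat1 showed the opposite order, with -0.40 and then 0.16, as did Pde6b with -0.23 and then 0.13. Gnb1 was level with the 12 genes in rd10 saline, with overlapping groups, and differed by -0.31 with GSK.

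Relative to its wild-type saline mean on this scale, Sag was at 0.78, 1.08 and 0.885 in rd10 saline, and at -0.01, -0.22 and -0.24 in rd10 GSK. Gngt1 was at 0.17, 0.26 and 0.02 in rd10 saline and at -0.36, -0.61 and -0.54 in rd10 GSK, the lowest values of any gene there. The smallest exact permutation p these groups allow is 0.1, and the lowest adjusted p was 0.164, so none of these differences could pass. With the recovery genes as the reference in place of the 12, Gngt1, Pde6a and Cnga1 turned to the opposite sign in rd10 saline against wild-type saline, and Gnb1, Pde6a, Pde6g and Cnga1 in the drug comparison, whereas Sag, Gnat1, Pde6b and Cngb1 kept theirs.

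**Figure D4:**
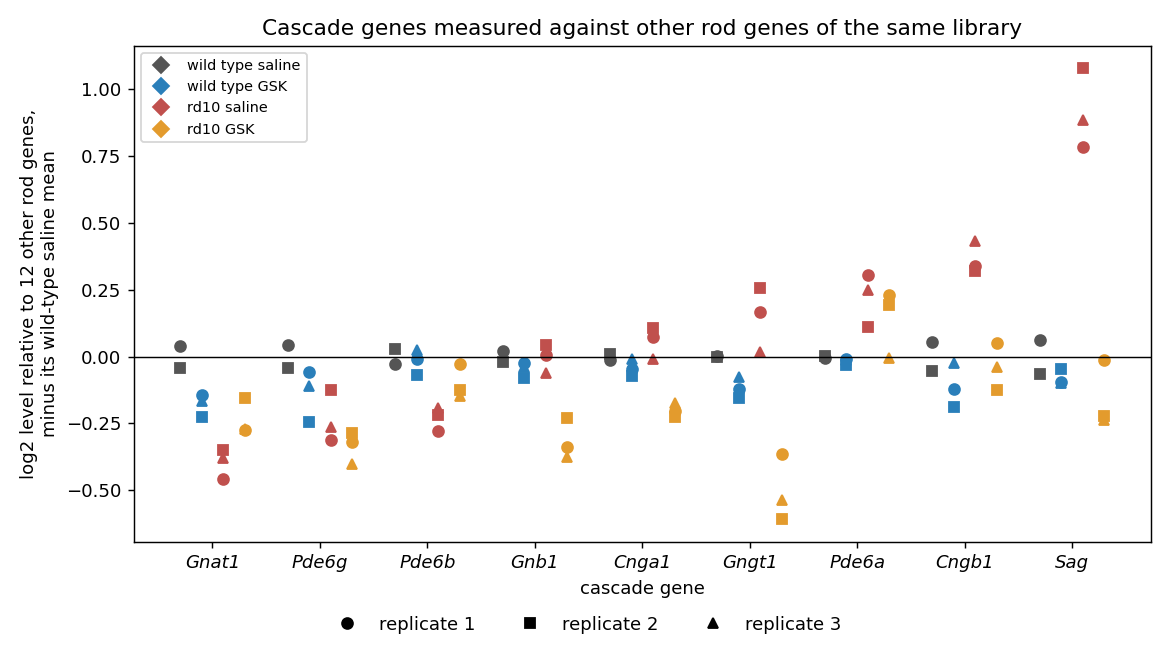
Log2 level of each cascade gene relative to the mean of 12 other rod genes in the same library, minus its wild-type saline mean (y axis), with 1 point per mouse and genes ordered by their rd10 saline mean (x axis). Sag in rd10 saline (0.78 to 1.08) lies above all other points, and Gngt1 in rd10 GSK (-0.61 to -0.36) reaches the lowest values.

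In wild-type retina the drug changed 0 of the 9 genes, where 0.532% of all tested genes were called in either direction. None of the 9 had an unadjusted p under 0.05, and DESeq2 and limma-voom also called 0. The log2 changes ran from -0.18 (Gnat1) to -0.01 (Pde6a and Pde6b), and the 95% confidence interval was -0.67 to 0.32 for Gnat1 and -0.465 to 0.31 for Sag. Changes of that size in either direction are therefore not excluded. Every wild-type GSK library lay below both wild-type saline libraries for 4 of 9 genes, Gnat1, Gngt1, Cnga1 and Cngb1 (17.3% of all tested genes). A fit of these 5 libraries alone called Gnat1, at -0.17 (adjusted p = 0.00511), and no other of the 9. It called 916 of 16230 tested genes in either direction, against 91 of 17099 in the main fit.

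The drug effect differed between the genotypes for 8 of 9 genes, all with a larger rise in rd10, where 7.49% of all tested genes were called in that direction. The difference of the log2 changes was 2.15 ± 0.30 for Gnat1 (adjusted p = 0.00229), 1.94 ± 0.26 for Pde6b (adjusted p = 0.00188) and 1.26 ± 0.22 for Gngt1 (adjusted p = 0.00607). For Sag it was 0.79 ± 0.23 (adjusted p = 0.0541) and did not pass. Sag passed by DESeq2 (adjusted p = 0.00377), under inner retina scaling (0.00332), without rd10 GSK replicate 1 (0.00282) and without rd10 GSK replicate 3 (0.039). Leaving out the 2 libraries with lens RNA leaves 1 wild-type saline retina, which is assumed to vary like the rest. The median difference of the 9 genes was then 1.61, against 1.60 with all libraries. Gnb1, Gngt1, Cnga1 and Cngb1 no longer passed there, at 1.52, 1.32, 1.61 and 1.61, and calls over all genes were also fewer. Cngb1 was also lost without wild-type saline replicate 1, at 1.45. Of the cone counterparts 0 were higher and 3 lower (Pde6h, Cnga3 and Cngb3, where 4.98% of all tested genes were lower), and 0 were lower under inner retina scaling.

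Treated rd10 retinas stayed below wild type. For each of the 9 genes every rd10 GSK library lay below every wild-type saline library (26.5% of all tested genes) and below every wild-type GSK library (21.4% of all tested genes). Against wild-type GSK 7 of 9 genes were lower by the test (10.9% of all tested genes), from -0.66 ± 0.20 for Gnat1 (adjusted p = 0.0362) to -1.01 ± 0.15 for Gngt1 (adjusted p = 0.00184). Pde6a, at -0.47 ± 0.16 (adjusted p = 0.0575), and Cngb1, at -0.55 ± 0.19 (adjusted p = 0.0657), did not pass. Against wild-type saline the same 7 were lower (10.3% of all tested genes), while Pde6a was at -0.49 ± 0.18 (adjusted p = 0.0771) and Cngb1 at -0.65 ± 0.21 (adjusted p = 0.0523).

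These counts moved with single libraries and with the fit, as did the calls over all genes. The main fit called 4484 genes in either direction against wild-type GSK and 4180 against wild-type saline. Without rd10 GSK replicate 2 these were 3142 and 2942, and without its replicate 3 they were 5694 and 5319. Without wild-type GSK replicates 1, 2 and 3 they were 2515, 2654 and 2914 against wild-type GSK. Without rd10 saline replicate 3, 3894 were called against wild-type saline. The compared groups alone gave 3485 and 1573. Against wild-type GSK, 6 of 9 were called without wild-type saline replicate 1 or 2, 4 without wild-type GSK replicate 1, 5 without wild-type GSK replicate 2 or 3 or rd10 GSK replicate 2, and 9 without rd10 GSK replicate 3. Against wild-type saline, 1 was called without wild-type saline replicate 1, 3 without its replicate 2, 8 without rd10 saline replicate 3, 5 without rd10 GSK replicate 2 and 9 without rd10 GSK replicate 3. Without both libraries with lens RNA, 3 and 1 were called against wild-type GSK and wild-type saline. A fit of the compared groups alone called 5 against wild-type GSK. Against wild-type saline it called only Gngt1, and the other 6 of those 7 had adjusted p-values from 0.0721 (Sag) to 0.135 (Cnga1). With no filter on low counts 6 and 4 were called (4029 and 3584 of all genes), and with the Xist covariate 6 and 4 (3855 and 2884). Under inner retina scaling 6 were called in each. That scaling called 7150 and 8297 of all genes, 92.9% and 96.1% of them higher. DESeq2 and the fit with the replicate block called 9 in each (4562 and 4293 of all genes by DESeq2, 4163 and 3895 with the block).

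Among genes outside the 9, those nearest in pattern were found by the root mean square difference, over all 11 libraries, of log2 (CPM + 1) relative to wild-type saline from the median profile of the 8 members other than Gnb1, among 12022 genes with a mean of at least 5 CPM. The nearest was Tnfaip3, which encodes the ubiquitin-editing protein A20, at a distance of 0.0706. It stood at 338 and 336 CPM in wild-type saline, 62.9, 58.0 and 75.2 in rd10 saline and 148, 199 and 258 in rd10 GSK. Abca4, a retinoid transporter of the disc rim, followed at 0.0925, then Rdh12, a photoreceptor retinol dehydrogenase, at 0.108, and Aqp1, a water channel, at 0.109. AI847159, Plekhf2, Cdr2, Rom1, Prcd and Arl4d completed the nearest 10, at 0.120 to 0.136. Among the members, Cnga1 lay nearest to the median profile at 0.0412 and Sag farthest at 0.445, with Gnb1 at 0.0985. The genes nearest to Sag were Bbs9 (0.0868), a subunit of the ciliary BBSome, Pla2r1 (0.0946) and Arhgap10 (0.106), and they are not among the 3 nearest to any other member. Prph2, a disc rim protein, was nearest to Pde6b (0.0700).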

How the data were processed

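RNA from 11 retinas was sequenced as polyA libraries made with a kit that marks strand. The authors deposited 1 table of raw counts of reads per gene, not normalized. Per the submitters' processing notes, bcl2fastq, HISAT2 2.1.0, HTSeq and edgeR were used with the builds NCBIM37 and mm9. Neither the annotation nor the strand setting of the counting is given in the sources used here, which leaves genes that overlap another gene uncertain. Of 37991 identifiers, 32919 matched a GENCODE M21 name, and the 5072 others held 0.627% of counts. Gene coordinates and lengths are from GENCODE M21 on GRCm38, and promoters from RefSeq on GRCm38.p6; none was converted between builds.

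Counts were filtered (filterByExpr, minimum count 10, minimum total 15) and scaled by TMM in edgeR 4.0.16 (R 4.3.3). A robust quasi-likelihood model with 1 coefficient per group over all 11 libraries gave 6 comparisons, adjusted by Benjamini-Hochberg over 17099 genes at 0.05. It was also run on counts simulated from the fitted spread. The outcome is not given here and would be no check on these libraries. The common biological coefficient of variation was 0.129. Ratios used log2 (CPM + 1) and exact two-sided permutation tests over libraries. The alternatives were other scalings, no filter, DESeq2 1.42.0, limma-voom 3.58.1, the compared groups alone, each library left out, both libraries with lens RNA left out, a replicate block and, added after the data were seen, Xist class as a covariate. No libraries were duplicates: within groups the chi-square per gene was 3.72 or more.

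Genes named are the 9 members, the genes of the lists, and the genes nearest in pattern. The members and lists were chosen with earlier results of these data known. Each library is 1 animal, and depth was 19657030 counts or more, so precision is limited by the number of animals.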

Additional observations from a re-analysis of the deposited data

Results flagged for a closer look

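The effect of the drug differed between rd10 and wild-type retina for 8 of the 9 cascade genes, by the test of the interaction itself in edgeR. The rd10 effect minus the wild-type effect, on the log2 scale, was 2.15 for Gnat1, 1.54 for Gnb1, 1.26 for Gngt1, 1.72 for Pde6a, 1.94 for Pde6b, 1.84 for Pde6g, 1.60 for Cnga1 and 1.51 for Cngb1. The wild-type part of each rests on 2 saline retinas, and microglia and Müller glia markers, whose part was not tested, moved between the rd10 groups as well.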

How the results depend on the processing

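All 9 genes kept their direction and call for rd10 under saline and for the drug in rd10 under the 22 alternatives run for each. Over those alternatives Gnat1 ran from -2.93 to -2.60 and from 1.76 to 2.33, and Sag from -1.59 to -1.29 and from 0.52 to 1.07. Over all genes, 6919 were called for rd10 under saline (the first comparison below), 5621 for the drug in rd10 (the second), 91 for the drug in wild type (the third), 2131 for the interaction, 4484 for rd10 under the drug (the fifth) and 4180 for treated rd10 against saline-treated wild type (the last). With 1 library left out they ran from 4435 to 7506, 4359 to 6346, 12 to 182, 864 to 3139, 2515 to 5694 and 1053 to 5319. Without both libraries with lens RNA they were 4081, 3805, 12, 524, 2213 and 726, with 1 wild-type saline library fewer in the fit. Inner retina scaling gave 10143 in the second, 158 in the third and 5854, 7150 and 8297 in the last 3. With the compared groups alone (not run for the interaction, which uses all 4) they were 3588 in the second, 916 in the third and 1573 in the last. In wild type, DESeq2 called 188, the replicate block 38 and the Xist covariate 54. The share of calls that were higher moved from 53.0% to 81.2% by library totals and 38.5% by inner retina scaling in the first comparison, and from 53.6% to 33.9% and 96.4% in the second. By library totals and inner retina scaling it was 33.6% and 95.9% in place of 60.1% for the interaction, 81.0% and 92.9% in place of 58.5% in the fifth, and 81.7% and 96.1% in place of 57.8% in the last. In wild type the compared groups alone gave 62.6% in place of 83.5%.

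The wild-type changes near 0 turned sign in places: by library totals Pde6a (0.003931) and Pde6b (0.002021); by inner retina scaling Gnb1 (0.03034), Pde6a (0.0614), Pde6b (0.05946) and Cnga1 (0.03572); Pde6b with replicate 2 of wild-type saline left out (0.006725, lowest without replicate 1 of that group, -0.03717) and with both lens-bearing libraries left out (0.008907); Pde6a with replicate 3 of wild-type GSK left out (0.009021, lowest without replicate 1 of that group, -0.02549); and with the Xist covariate Pde6a (0.04003) and Pde6b (0.008922). Relative to other rod genes, a pseudocount of 0.5 turned Gnb1 in rd10 saline to 0.003248. The recovery genes as reference gave -0.1865 for Gngt1, -0.1126 for Pde6a and -0.2769 for Cnga1 there, and with GSK 0.006699 for Gnb1, 0.2362 for Pde6a, 0.2167 for Pde6g and 0.05964 for Cnga1. The cause was not tested.

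Replicate numbers were not taken to pair libraries in the main fit. Of 15 same-number pairs in different groups, 5 had a correlation of deviations over 0.1 (range -0.204 to 0.442). However, 9 of 11 libraries correlated best with their own number, and whether the numbers mark a shared block was not tested. With the replicate block 6601, 5404, 38, 1866, 4163 and 3895 genes were called, and 9 of 9 cascade genes in each comparison but the wild-type one, with 0; Sag then passed in the interaction (0.8517, adjusted p = 0.0298), and Pde6a and Cngb1 passed against wild-type saline (0.0461 and 0.00949).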

Other observations

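Gnb4, a beta subunit gene that is not part of the rod cascade, was among the genes higher with the drug in both genotypes. It was at 11.6 and 12.1 CPM in wild-type saline and 21.6, 22.5 and 22.6 in wild-type GSK, and at 13.8, 11.4 and 11.5 CPM in rd10 saline and 16.2, 18.4 and 20.04 in rd10 GSK. The rise was 0.90 ± 0.11 in wild type (edgeR adjusted p = 0.00456) and 0.57 ± 0.10 in rd10 (adjusted p = 0.00116). The difference between the genotypes was -0.33 ± 0.15 and did not pass (adjusted p = 0.178). Gng4, a gamma subunit gene, rose with the drug in rd10 by 0.59 ± 0.10 (adjusted p = 0.000968) and was at 0.48 ± 0.11 in wild type (adjusted p = 0.108). Neither gene changed in rd10 saline against wild-type saline by the same test, at 0.04 ± 0.11 and -0.26 ± 0.11. Under inner retina scaling Gng4 fell in that comparison, at -0.35 (adjusted p = 0.0171), and rose with the drug in wild type, at 0.55 (adjusted p = 0.0322).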
